A study of Mus musculus with 12 samples.

Results

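The transcripts of 3 hearts (KO/HT) and 3 kidneys (KO/KID) of PAI-1 knockout mice were compared on Illumina mouse bead arrays. These are 6 of the 12 arrays of the series, the others being 3 wildtype hearts (WT/HT) and 3 wildtype kidneys (WT/KID). They were chosen by the genotype and organ in their titles, and 19113 of the 45281 probes, those detected (detection p-value under 0.01) in at least 1 of the 6 arrays, were tested. All mice were 12 months old and on a C57BL/6 background. The animals of both compared groups therefore shared the knockout, the strain and the age and differed in the organ. Neither the labels nor the methods state the sex of the mice, the time of day of collection or the part of each organ taken. The paper's results describe the wildtype controls as matched for age and sex, without naming the sex. The series was made to compare genotypes within each organ and organs within each genotype, and the present comparison asks how the 2 organs differ when both lack PAI-1.

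PAI-1 inhibits the activators of plasminogen, the protease precursor whose active form dissolves fibrin and helps to turn over the extracellular matrix. Heart muscle contracts through sarcomeres, repeating units of actin, myosin and their regulators, and burns mainly fatty acids. The kidney filters blood in its glomeruli and recovers solutes along a tubule whose successive segments (proximal tubule, thick limb, distal tubule, collecting duct) carry different transporters.

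The organ labels were borne out by their markers. Of 42 tested genes of the contractile and calcium-handling lists, all were detected in KO/HT replicates 1 and 2 and 40 in replicate 3, against 16 to 17 in a knockout kidney, and their median log2 level lay between 11.98 and 12.40 in the hearts and between 6.53 and 6.54 in the kidneys. Of 89 tested tubule genes, 87 to 88 were detected in a knockout kidney. In the hearts the number was 19 in replicate 1, 26 in replicate 2 and 31 in replicate 3, and in the wildtype hearts it was 18 to 28. The median tubule level was 6.52 to 6.57 in the knockout hearts and 10.01 to 10.07 in the knockout kidneys. The arrays of the 2 knockout groups correlated across probes at r = 0.725 to 0.742, the knockout hearts with each other at 0.986 to 0.992 and the knockout kidneys at 0.993 to 0.996.

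Sex-linked transcripts parted the animals unevenly over the organs. Xist, transcribed from the inactive X chromosome, was at 6.52 in KO/HT replicate 1, 8.14 in replicate 2 and 7.88 in replicate 3, and between 6.48 and 6.50 in the 3 knockout kidneys. The Y-linked Eif2s3y stood at 9.80 in KO/HT replicate 1, at 6.45 and 6.49 in replicates 2 and 3, and between 8.72 and 8.94 in the knockout kidneys. Kdm5d, also Y-linked, followed at lower levels, with 7.05 in KO/HT replicate 1, 6.49 and 6.52 in replicates 2 and 3, and 6.68 to 6.76 in the knockout kidneys. The Y-linked Uty stayed near background, between 6.57 and 6.73 in the knockout arrays, and did not follow the split. By Xist, Eif2s3y and Kdm5d, KO/HT replicate 1 thus carried the same sex-linked transcripts as the kidneys, and replicates 2 and 3 the opposite ones. The design text speaks of 3 knockout mice for both organs, but hearts 2 and 3 cannot share animals with these kidneys if the labels hold. In the wildtypes the split was complete, with Xist between 7.91 and 8.17 in the hearts and 6.45 to 6.49 in the kidneys, and Eif2s3y between 6.44 and 6.49 in the hearts and 7.97 to 8.84 in the kidneys. Organ and sex therefore cannot be told apart in the wildtype arrays, and in the knockouts only heart replicate 1 parts them. With KO/HT replicate 1 as the only knockout heart, assumed to vary like the other groups, 6247 probes were higher and 5352 lower in the heart, and 10996 of the 12851 calls made with all hearts were made again in the same direction.

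At an adjusted p under 0.05 (limma, Benjamini-Hochberg over all tested probes), 6888 probes were higher in KO/HT (36.0%) and 5963 were lower (31.2%), together 67.2%. The 2 organs did not overlap for 70.8% of the probes. By the study's rule for organs (false discovery rate under 10% and a 1.5-fold change or more), 3206 probes passed on the side of the heart and 2950 on that of the kidney, together 32.2%. At least 4-fold differences were found for 1272 probes, at least 16-fold for 322 and at least 64-fold for 78. Without quantile normalization, with each array only centred on its median, the median difference of the tested probes moved from 0.03 to -0.16 log2, and 3866 probes were called higher and 9179 lower (29.6% of the calls higher, against 53.6%). Small differences are therefore tied to the scale, and all values below are relative to quantile normalized signals.

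Each of 10978 named genes was represented by its detected probe with the highest mean, and 69.9% of them were called (36.2% higher, 33.7% lower). By this count, 459 genes were detected in all 3 knockout hearts and in no knockout kidney, and 365 of them had the same pattern in the wildtype. In the opposite direction, 911 genes were detected in every knockout kidney and in no knockout heart, of which 737 had that pattern in the wildtype. None of these genes had the reversed pattern there. Where a gene was detected in only 1 organ, its fold is given as a lower bound ("at least"), the mean of the organ with signal against the lowest detected signal of each array of the other. In whole organs, fewer cells of a type and less RNA per cell cannot be told apart. Counts of list members below are to be read beside the 69.9% called over all named genes (36.2% higher, 33.7% lower).

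Proteins of the sarcomere led the genes higher in the heart. Myl2, the ventricular regulatory light chain of myosin, had a log2 signal of 15.02, 15.10 and 15.02 in the KO/HT arrays and of 6.44, 6.52 and 6.43 in the KO/KID arrays, where it was not detected. This is a difference of at least 338-fold (log2 difference 8.58 ± 0.05, SE; adjusted p = 1.08e-17 by limma). Myl3, the essential light chain, stood at 15.06, 14.93 and 15.06 against 6.43, 6.46 and 6.52, at least 330-fold higher. Both lay close to 15.15, the highest value of the normalized scale, so their difference may be compressed. Actc1, cardiac alpha-actin, had 14.44, 14.62 and 14.66 against 6.48, 6.40 and 6.48 (at least 243-fold). Myh6, the alpha myosin heavy chain of the adult mouse heart, had 14.31, 14.46 and 14.42 against 6.45, 6.53 and 6.47 (at least 215-fold). The values within an organ differed far less than the organs did, and no array of one organ came near the other.

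**Figure D1:**
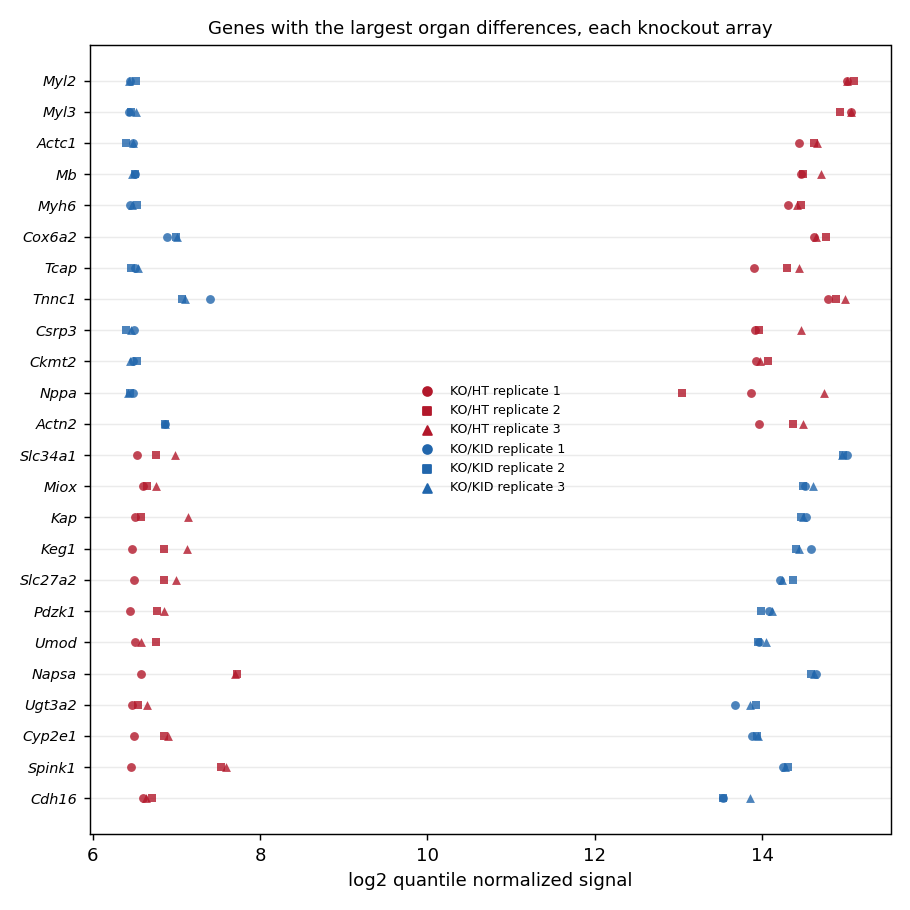
Log2 quantile normalized signal (horizontal axis) of the 12 genes with the largest positive and the 12 with the largest negative organ difference, with 1 symbol per knockout array (red, KO/HT; blue, KO/KID; circle, square and triangle for replicates 1, 2 and 3). Every heart lies above 13 for the upper 12 genes and below 8 for the lower 12, and among the hearts replicate 1 has the lowest Napsa (6.58) and Spink1 (6.46).

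Of 24 tested sarcomere genes, 23 were higher in KO/HT, 1 was lower and the median difference was 6.25 log2, against 0.02 over all named genes. Tcap, which caps titin, was at least 189-fold higher, and Csrp3, a stretch-sensing protein of the Z-disc, at least 176-fold. Tnnc1, the cardiac and slow troponin C, was also detected in the kidneys (7.4, 7.07 and 7.1, against 14.79, 14.88 and 14.99) and was 208-fold higher. The exception was Tpm1, tropomyosin 1, whose gene makes muscle and non-muscle forms. It was at 9.76, 9.78 and 9.98 in the hearts and at 10.33, 10.50 and 10.51 in the kidneys (-0.61 ± 0.10 log2, adjusted p = 1.11e-04, limma), and both of its detected probes were lower in the heart.

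Promoters of leading heart genes are shown for 5 of them because they hold, within the 250 bases before the annotated start, letters that match the SRF CArG box or the MEF2 site. SRF and MEF2 are transcription factors known for binding such letters in muscle genes. The windows come from RefSeq (build GRCm38.p6), run 5′ to 3′ on the strand of the gene, and carry the match in capitals. They lie at chr9:110763571-110763624 (plus strand, Myl3), chr2:114052891-114052944 (minus, Actc1), chr8:123894817-123894870 (minus, Acta1), chr2:91118032-91118085 (plus, Mybpc3) and chr2:76982682-76982735 (minus, Ttn).
Myl3: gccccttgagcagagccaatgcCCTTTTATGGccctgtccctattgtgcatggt
Actc1: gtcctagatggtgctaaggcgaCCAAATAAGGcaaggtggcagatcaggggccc
Acta1: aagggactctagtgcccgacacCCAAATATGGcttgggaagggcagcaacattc
Mybpc3: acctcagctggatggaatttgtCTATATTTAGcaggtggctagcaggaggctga
Ttn: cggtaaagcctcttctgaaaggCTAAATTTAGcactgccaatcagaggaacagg

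The first 3 windows show a CArG box and the other 2 a MEF2 match. Over the 300 bases of each promoter (250 before and 50 after the start), both strands, a CArG box was present for 9 of the 87 genes with a promoter entry among the 100 genes highest in KO/HT (10.3%), for 1 of 79 among the 100 lowest (1.27%) and for 1.81% of the 27025 genes of the table. MEF2 letters (CTA and TAG parted by any 4 bases) were present for 11.5%, 2.53% and 4.23%. GATA letters (AGATAA) were found for 18.4%, 13.9% and 12.7%. TATA letters (TATAAA) were sought only in the 50 bases before the start, on the strand of the gene. They were found for 10.3%, 10.1% and 3.15%, so both sets lay above the table for a pattern not tied to 1 organ. Letters of the ERR element (TCAAGGTCA) matched in neither set, against 0.466% of the table. The CArG box and the MEF2 letters can occur in the same promoter, and a match is a description of letters, not of binding.

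The 2 MEF2-marked genes illustrate the size of the difference. Mybpc3, cardiac myosin-binding protein C, was at 13.25, 13.07 and 13.70 in the hearts and between 6.46 and 6.57 in the kidneys (at least 104-fold). Ttn, the giant spring protein titin, was at 13.34, 12.96 and 13.20 against 6.43 to 6.55 in its brightest probe (at least 91.7-fold). All 9 of its detected probes were higher in the heart, but their differences ran from 0.22 to 6.69 log2.

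Genes of calcium handling and excitation followed: by their brightest probes, 16 of 18 tested were higher, none was lower and 2 did not pass (median 2.41 log2). Slc8a1, the sodium-calcium exchanger, had 2 detected probes that were called in opposite directions (2.58 and -3.12 log2). Hrc, a calcium-binding protein of the sarcoplasmic reticulum, was at 13.32, 13.27 and 13.05 in the hearts and at 6.60, 6.54 and 6.55 in the kidneys (at least 94.8-fold). Pln, phospholamban, the brake on the calcium pump, was at least 47.0-fold higher, and Ryr2, the calcium release channel, at least 46.2-fold. Atp2a2, the calcium pump that Pln restrains, was detected in both organs, at 14.93, 14.99 and 14.85 against 9.77, 9.86 and 9.82, a 34.4-fold difference. These sizes are those of the brightest probes: the 3 detected probes ran from 0.45 to 5.66 log2 for Ryr2 and from 0.78 to 5.11 for Atp2a2. Gja1, connexin 43 of the gap junctions, was likewise present in both (13.34, 13.44 and 13.24 against 8.47, 8.27 and 8.51; 30.4-fold).

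The cardiac hormones and stress-responsive genes were high in every knockout heart but varied among them. Of 16 tested, 15 were higher in KO/HT and 1 did not pass (median 5.42 log2). Nppa, atrial natriuretic peptide, was at 13.87, 13.04 and 14.74 in KO/HT replicates 1 to 3 and at 6.48, 6.44 and 6.42 in the kidneys (at least 151-fold; 7.43 ± 0.45 log2, adjusted p = 1.3e-08, limma). Nppb, brain natriuretic peptide, was at 13.57, 13.25 and 14.30 against 6.42, 6.52 and 6.44 (at least 133-fold). Replicate 3 was the highest and replicate 2 the lowest heart for both hormones. The same order held for Acta1, skeletal alpha-actin (13.16, 11.83 and 13.92; at least 80.1-fold), for Myh7, the beta myosin heavy chain (8.70, 8.01 and 10.03; at least 4.81-fold), and for Ankrd1, a titin-associated protein of stretched muscle (13.71, 13.51 and 14.17 against 7.35, 7.07 and 7.12; 98.2-fold). The organs did not overlap for any of these genes. Mb, myoglobin, which stores oxygen, was the most different gene of the list (14.46, 14.49 and 14.70 against 6.50, 6.50 and 6.47; at least 240-fold).

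Transcription factors known for heart development were higher in KO/HT in 18 of 19 tested cases, with smaller differences (median 0.82 log2). With median centring only, 14 were higher and 1 lower (median 0.68 log2). Gata6 was 11.4-fold higher (10.44, 10.50 and 10.25 against 6.96, 6.86 and 6.84). Nkx2-5, among the earliest cardiac regulators, was at 8.79, 8.56 and 9.16 in the hearts and undetected in the kidneys (at least 4.56-fold), as was Myocd, myocardin, a coactivator of SRF (8.25, 8.78 and 8.76; at least 3.86-fold). Prox1 was 3.37-fold higher, Irx4 at least 2.64-fold and Tead1 2.75-fold. Of the 19, Mef2d alone did not pass the test (-0.09 log2). It was lower with median centring only (-0.16 log2, adjusted p = 0.015, limma) and with background correction by neqc (-0.30 log2, adjusted p = 0.0469, limma).

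In energy metabolism, both organs are rich in mitochondria, and the differences were moderate. Of 35 tested genes of oxidative phosphorylation, 31 were higher in KO/HT, none was lower and 4 did not pass (median 0.80 log2). Ndufb5, of complex I, was at 11.58, 11.29 and 11.05 in the hearts and at 9.91, 9.72 and 9.62 in the kidneys (2.94-fold), Cox7b, of complex IV, was 3.19-fold higher and Sdhb, of complex II, 2.67-fold. Among 26 tested genes of fatty acid use, 19 were higher and 3 lower. Fabp3, the heart fatty acid-binding protein (14.49, 14.66 and 14.56 against 10.31, 10.45 and 10.37; 18.3-fold), Cpt1b, the muscle gate of mitochondrial fatty acid entry (17.1-fold), and Hadhb, of the mitochondrial trifunctional protein (4.76-fold), were on the side of the heart. The 3 lower genes were Slc27a2, a very-long-chain fatty acid transporter and activating enzyme (6.49, 6.85 and 7.0 against 14.21, 14.37 and 14.24; 180-fold), Ehhadh, of the peroxisomal pathway (8.07-fold), and Acot1, a cytosolic acyl-CoA thioesterase (6.2-fold). Pdk4, which shuts pyruvate out of oxidation, was 8.43-fold higher in the hearts but uneven in the kidneys (7.65 in replicate 1, 8.28 and 8.42 in the others).

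**Figure D2:**
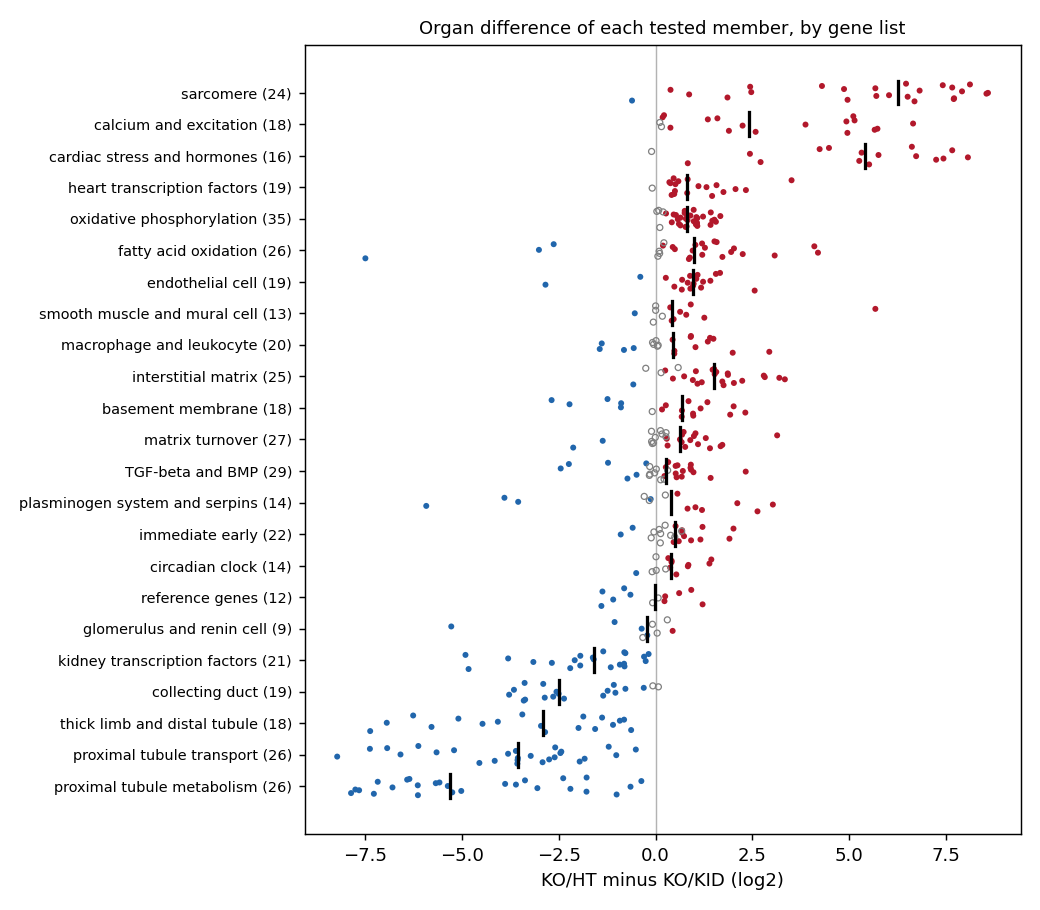
Log2 difference KO/HT minus KO/KID (horizontal axis) of each tested member of 23 gene lists, whose numbers of tested genes are in parentheses. Red and blue points passed adjusted p under 0.05 as higher or lower in the heart, open points did not pass, and the black bar is the median; it runs from 6.25 for the sarcomere to -5.31 for proximal tubule metabolism.

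Several proteins exist in a muscle form and another form encoded by separate genes, which allows the organs to be read within 1 function. Of 23 such pairs, 12 had both members tested. The muscle form was higher in KO/HT in 12 of 12, and the other form was lower in 9, higher in 1 and did not pass in 2. Background shares were 36.2% and 33.7% of all named genes. Cox6a2, the heart and muscle subunit of cytochrome c oxidase, was at 14.62, 14.77 and 14.64 in the hearts and at 6.89, 7.0 and 7.01 in the kidneys, 209-fold higher. Its counterpart Cox6a1 ran the other way, at 11.66, 11.62 and 11.83 against 13.71, 13.64 and 13.92 (-2.05 ± 0.08 log2, adjusted p = 8.65e-11, limma).

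Creatine kinases, which buffer ATP, parted in the same way. Ckm was at least 107-fold and the mitochondrial Ckmt2 at least 162-fold higher in the heart, while Ckb (-1.01 ± 0.15 log2) and Ckmt1 (-3.12 ± 0.08 log2) were lower. Translation factor Eef1a2 was at least 122-fold higher and its near-identical counterpart Eef1a1 was lower (-1.37 ± 0.06 log2); since their sequences are alike, cross-hybridisation between them was not tested. The glucose transporters crossed over too: insulin-responsive Slc2a4 was at 10.59, 10.30 and 10.13 against 7.16, 7.33 and 7.38, and Slc2a2, the basolateral transporter of the proximal tubule, was undetected in the hearts and at 9.52, 10.03 and 9.67 in the kidneys (at least 8.28-fold). Glycogen phosphorylase Pygm was at least 13.1-fold higher and the liver form Pygl lower (-1.35 ± 0.09 log2). Phosphofructokinase was the exception, with Pfkl higher in the heart (1.00 ± 0.12 log2) as well as Pfkm (3.45 ± 0.07 log2). Cox7a2 and Phka2 did not pass (-0.09 ± 0.12 and 0.01 ± 0.06 log2), though both were lower with median centring only (-0.69 and -0.44 log2).

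**Figure D3:**
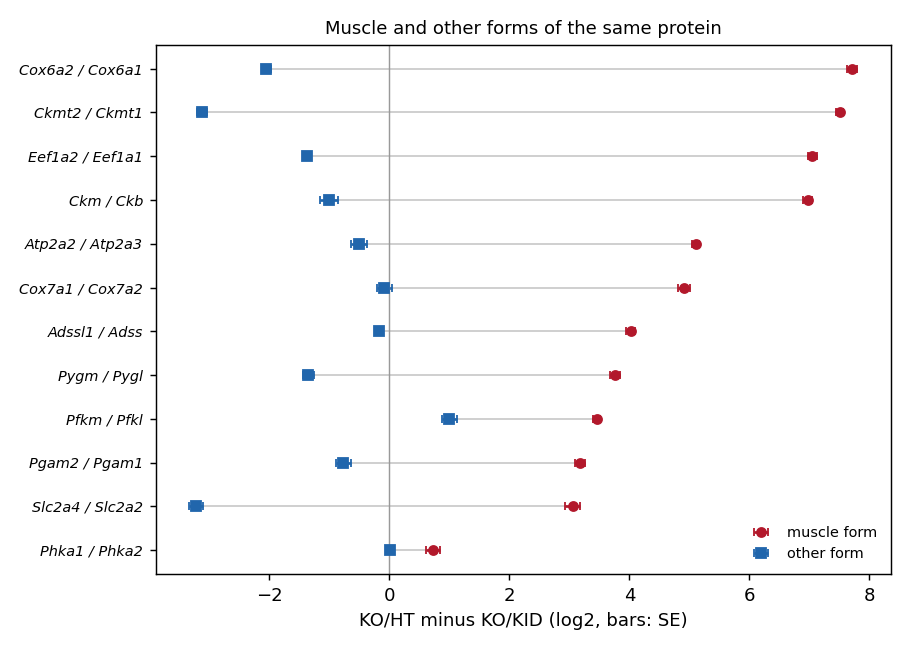
Log2 difference KO/HT minus KO/KID with its standard error for the muscle form (red circles) and the other form (blue squares) of 12 proteins with both members tested. All red circles lie right of 0, from 0.72 for Phka1 to 7.71 for Cox6a2, and Pfkl is the only other form clearly right of 0, at 1.00.

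The kidney side was led by the proximal tubule. Slc34a1, the sodium-phosphate cotransporter of its brush border, was at 15.02, 14.97 and 14.95 in the KO/KID arrays and at 6.53, 6.76 and 6.98 in KO/HT replicates 1 to 3 (299-fold; -8.22 ± 0.17 log2, adjusted p = 2.4e-13, limma). Pdzk1, the scaffold that anchors such transporters, was 166-fold lower in the heart, and Lrp2, megalin, the endocytic receptor for filtered protein, 122-fold. Slc22a6, the organic anion transporter OAT1, was at 12.99, 13.16 and 13.06 in the kidneys and undetected in the hearts (at least 83.1-fold), as was Amn, a partner in megalin-dependent uptake (at least 61.4-fold). All 26 tested genes of proximal tubule transport were lower in KO/HT (median -3.56 log2), and so were all 26 of proximal tubule metabolism (median -5.31 log2). Miox, which opens the catabolism of myo-inositol, was 233-fold lower (6.60, 6.65 and 6.76 against 14.51, 14.49 and 14.61), and Kap, the androgen-regulated protein of the mouse proximal tubule, 216-fold.

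A low but uneven signal of the strongest kidney genes was seen in the hearts. Napsa, an aspartic protease of the proximal tubule, was at 6.58 in KO/HT replicate 1, where it was not detected, and at 7.73 and 7.70 in replicates 2 and 3, against 14.64, 14.58 and 14.62 in the kidneys. Spink1, a trypsin inhibitor, showed the same split (6.46, 7.53 and 7.59 against 14.25, 14.31 and 14.27), and Keg1 was at 6.47, 6.85 and 7.13. The part of these traces in the differences was not tested. With KO/HT replicate 1 as the only knockout heart, all 26 genes of proximal tubule transport were again lower and 25 of the 26 of proximal tubule metabolism.

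Promoter windows of 5 genes with strong kidney signal are shown because they match a shortened letter pattern of HNF1 (GTTAAT and ATT parted by any 1 base), a factor known for activating genes of the proximal tubule and liver. RefSeq (GRCm38.p6) places them at chrX:164090111-164090164 (plus strand, Cltrn), chr11:101367473-101367526 (plus, G6pc), chr5:87569054-87569107 (minus, Sult1d1), chr1:139501630-139501683 (plus, F13b) and chr19:56287824-56287877 (plus, Habp2). The match is in capitals, and in F13b it lies on the opposite strand, so that its capitals read as the reverse complement.
Cltrn: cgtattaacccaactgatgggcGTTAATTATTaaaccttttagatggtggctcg
G6pc: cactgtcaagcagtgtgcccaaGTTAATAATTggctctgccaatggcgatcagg
Sult1d1: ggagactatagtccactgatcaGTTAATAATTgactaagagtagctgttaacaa
F13b: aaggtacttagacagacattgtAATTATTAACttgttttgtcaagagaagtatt
Habp2: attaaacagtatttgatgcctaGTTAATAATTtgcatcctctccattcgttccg

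Such letters were present for 6 of 79 promoters among the 100 genes lowest in KO/HT (7.59%), for 0 of 87 among the 100 highest and for 0.47% of all genes of the table. The full palindrome, with ATTAAC as its second part, matched in neither set, and HNF4 letters (CAAAGTCCA) matched 2 of 79 and 1 of 87 (2.53% and 1.15%, against 0.555% of all). Cltrn, collectrin, a partner of amino acid transporters of the brush border, was at 12.12, 12.51 and 12.30 in the kidneys and undetected in the hearts (at least 49.2-fold). G6pc, glucose-6-phosphatase, the last step of glucose release, was at 11.77, 12.25 and 12.02 against 6.54, 6.64 and 6.77.

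The distal segments followed the same direction with smaller differences. All 18 tested genes of the thick limb and distal tubule were lower in KO/HT (median -2.91 log2), led by Umod, uromodulin, the most abundant protein of normal urine (6.50, 6.76 and 6.58 against 13.96, 13.95 and 14.05; 166-fold), Klk1, tissue kallikrein (at least 109-fold), and Slc12a1, the furosemide-sensitive cotransporter (at least 47.6-fold). Egf, which the distal tubule makes, was 34.1-fold lower in the heart. In the collecting duct, 17 of 19 genes were lower and 2 did not pass (median -2.50 log2). Aqp2, the vasopressin-regulated water channel, was at 9.94, 9.49 and 10.04 in the kidneys and at background in the hearts (at least 8.76-fold), and Fxyd4, a regulator of the sodium pump, was at least 10.7-fold different. The sodium channel subunits Scnn1a and Scnn1b were at least 5.42-fold and 6.14-fold higher in the kidney.

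Of the glomerulus and renin cell list, 9 genes were tested, 4 were lower in KO/HT, 1 was higher and 4 did not pass (7 lower and 1 higher with median centring only). Nphs1, nephrin of the filtration slit, was detected in each kidney but barely (6.70, 6.80 and 6.86, against 6.35, 6.47 and 6.46; at least 1.07-fold). Plce1, a phospholipase needed by podocytes and also present in heart, was the higher one (at least 1.27-fold). The list also holds Kl, Klotho, a hormone and coreceptor made mainly in the distal tubule, which was at 11.55, 11.89 and 11.82 in the kidneys and between 6.46 and 6.49, undetected, in the hearts (at least 33.4-fold; -5.28 ± 0.08 log2, adjusted p = 1.51e-14, limma).

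All 21 tested transcription factors of kidney development and tubule identity were lower in KO/HT (median -1.60 log2). Hnf4a, a regulator of proximal tubule genes, was at 11.60, 11.65 and 11.66 in the kidneys and at 6.72, 6.78 and 6.69 in the hearts (30.1-fold), and Tfcp2l1, of the distal nephron and collecting duct, was 28.4-fold lower. Hox genes, which keep positional identity along the body axis, were prominent: Hoxb7 (14.0-fold), Hoxd8 (8.92-fold), Hoxd9 (at least 5.68-fold) and Hoxd10 (at least 3.83-fold). Across all 19 Hox genes tested, 18 were lower in the heart and 1 did not pass.

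Genes of the interstitial matrix were mostly higher in the heart. Of 25 tested, 21 were higher, 1 was lower and 3 did not pass (median 1.51 log2; 1.07 on the median-centred scale, with 20 higher and 2 lower). Lum, lumican, a proteoglycan that organises collagen fibrils, was at 9.77, 10.11 and 10.29 in the hearts and at 6.61, 6.76 and 6.79 in the kidneys (10.1-fold). Dcn, decorin, of the same family, was 6.94-fold higher, Fbln2, fibulin 2, 9.16-fold, Fbln1 7.06-fold and Ogn, osteoglycin, 4.71-fold. Tnc, tenascin C, was the member on the side of the kidney (-0.58 ± 0.08 log2, adjusted p = 5.64e-05, limma). The median level of the list was 8.77, 8.55 and 9.60 in KO/HT replicates 1 to 3 and 7.0 to 7.04 in the kidneys, so replicate 3 stood apart among the hearts.

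Basement membrane genes split by chain. Of 18 tested, 12 were higher and 5 lower in KO/HT (9 and 6 with median centring only). Lamb2, the laminin beta 2 chain, was 4.98-fold higher, Hspg2, perlecan, 4.04-fold, and Lamc1 3.80-fold. The collagen IV chain Col4a2 was higher (1.34 ± 0.16 log2), whereas Col4a3 (-0.89 ± 0.10 log2) and Col4a4 (-2.22 ± 0.06 log2), chains known from the mature glomerular basement membrane, were lower, at 6.69, 6.68 and 6.78 against 8.85, 9.02 and 8.96 for Col4a4. Col18a1, the precursor of endostatin, was 6.43-fold lower in the heart, Agrn, agrin, 2.37-fold, and Lama1 at least 1.65-fold.

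Among 27 tested genes of matrix turnover, 16 were higher, 2 lower and 9 did not pass, but with only median centring the split was 8 and 6. The called share was close to the 69.9% of all named genes, of which 36.2% were higher and 33.7% lower. Mmp2, gelatinase A, was at 10.09, 10.46 and 11.02 in the hearts against 7.48, 7.31 and 7.36 in the kidneys (8.81-fold). The tissue inhibitors of metalloproteinases differed in direction: Timp1 was at 7.87, 8.09 and 9.73 against 6.90, 6.76 and 7.0 (1.68 ± 0.36 log2, adjusted p = 0.00114, limma), Timp4 was at least 2.48-fold higher, and Timp3 was lower (10.57, 10.92 and 11.39 against 13.02, 13.01 and 13.24; -2.13 ± 0.17 log2). Replicate 3 set much of the size for Timp1, whose difference was 1.10 log2 without it, and for Mmp3, stromelysin 1, which was at 7.38, 7.45 and 8.86 and fell from 1.3 to 0.81 log2. P4hb, a protein disulfide isomerase that also serves prolyl 4-hydroxylase, was the other lower gene (2.58-fold).

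**Figure D4:**
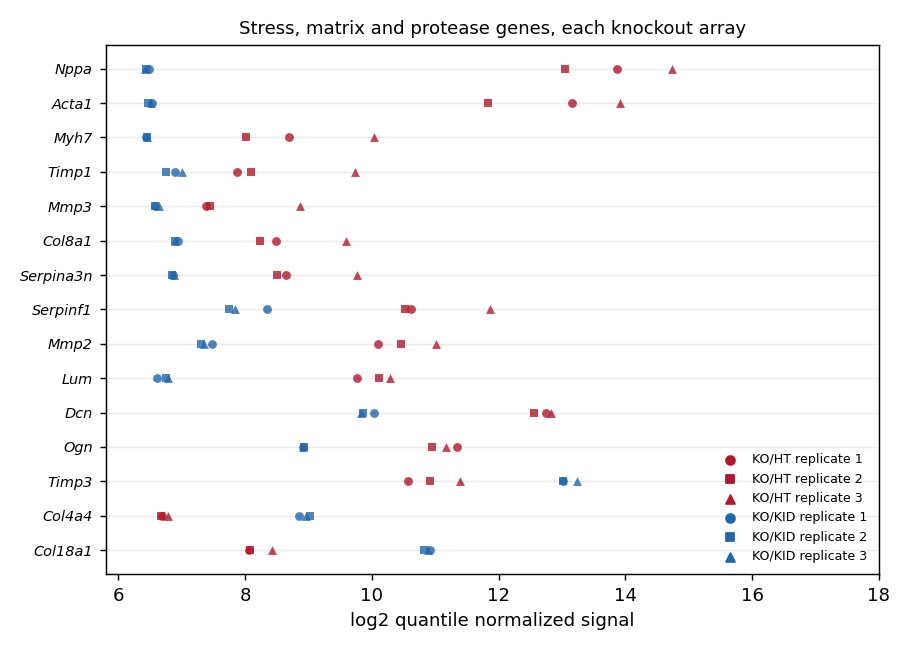
Log2 quantile normalized signal of 15 stress, matrix and protease genes in each knockout array (red, KO/HT; blue, KO/KID; circle, square and triangle for replicates 1, 2 and 3). KO/HT replicate 3 is the highest heart for Timp1 (9.73), Mmp3 (8.86) and Col8a1 (9.60), while Timp3, Col4a4 and Col18a1 are higher in all kidneys.

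Of 14 tested genes of the plasminogen system and related serpins, 7 were higher, 4 lower and 3 did not pass (6 and 6 with median centring only), beside 36.2% higher and 33.7% lower over all named genes. Plau, urokinase, an activator of plasminogen, was at 10.72, 10.86 and 10.53 in the kidneys and at 6.69, 6.80 and 6.92 in the hearts (15-fold lower in the heart; -3.90 ± 0.16 log2, adjusted p = 2.57e-10, limma). Plat, the tissue-type activator, did not pass (-0.29 log2), but was lower with median centring only (-0.87 log2, adjusted p = 0.00219, limma). Serpinf2, the plasmin inhibitor alpha 2-antiplasmin, was at least 54.3-fold higher in the kidney (12.52, 12.50 and 12.35), as was Serpina1d, an alpha 1-antitrypsin (11.7-fold), which belongs to a cluster of near-identical genes, so that its probe may read several. On the side of the heart were Serpinf1, pigment epithelium-derived factor (10.61, 10.53 and 11.87 against 8.34, 7.74 and 7.84; 8.16-fold), Vtn, vitronectin, an adhesive protein of plasma and matrix (8.89, 9.56 and 9.20 against 6.66, 6.50 and 6.59; 6.2-fold), Serpina3n (4.32-fold) and Thbd, thrombomodulin (2.29-fold).

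The ligands, receptors and targets of TGF-beta and BMP signalling had no direction that held on every scale: of 29 tested, 15 were higher and 6 lower, but 7 and 12 with median centring only. Their called share was close to the 69.9% of all named genes (36.2% higher, 33.7% lower). Among the ligands, Tgfb3 was higher in the heart (7.90, 7.83 and 8.47 against 6.64, 6.65 and 6.65; 2.68-fold), while Bmp7, known for kidney development, was undetected there and at 8.78, 8.70 and 8.77 in the kidneys (at least 4.16-fold), and Bmp4 was 2.34-fold lower. Ltbp4, which tethers latent TGF-beta to the matrix, was 5.02-fold higher. Of the target genes, Id2 was lower (7.0, 7.17 and 7.09 against 9.56, 9.63 and 9.41; 5.47-fold).

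Genes known from cells other than muscle and tubule were also examined. Of 19 tested endothelial genes, 17 were higher in KO/HT (12 with median centring only), among them Vwf, von Willebrand factor (9.10, 10.22 and 9.86 against 7.19, 7.02 and 7.28; 5.89-fold), and Cdh5, VE-cadherin (2.94-fold). The 2 lower ones were Plvap, of the diaphragms of fenestrated endothelium (7.96, 8.37 and 8.41 against 11.19, 10.98 and 11.11; 7.18-fold), and Emcn, endomucin (-0.40 ± 0.10 log2). The summed linear signal of the list was 13.80 to 14.01 log2 in the hearts and 13.33 to 13.47 in the kidneys.

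Macrophage and leukocyte genes were mixed, with 11 higher, 4 lower and 5 of 20 not passing (7 higher and 6 lower with median centring only). Over all named genes, 36.2% were higher and 33.7% lower. The summed signal of the list overlapped between the organs (13.26 to 13.75 log2 in the hearts, 13.39 to 13.70 in the kidneys). Lyz2, lysozyme (10.24, 10.55 and 10.65 against 7.39, 7.74 and 7.51; 7.65-fold), Mrc1, the mannose receptor (3.97-fold), and Cd163, the haemoglobin scavenger receptor (1.35 ± 0.11 log2), were higher in the heart. The 4 lower genes encode the antigen-presenting MHC class II molecules and their invariant chain: H2-Ab1 (2.72-fold), Cd74 (2.62-fold), H2-Eb1 (1.76-fold) and H2-Aa (1.48-fold, adjusted p = 0.0413, limma). The call of H2-Aa was weak: it was lost without replicate 1 or 3 of either knockout organ, with KO/HT replicate 1 as the only knockout heart, with the authors' normalized values, with a looser or no detection filter, and with trend and robust moderation (adjusted p from 0.0508 to 0.132, limma).

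Fat-cell genes were detected in the kidney samples. Of 9 tested, 5 were lower and 2 higher in KO/HT (2 and 2 with KO/HT replicate 1 as the only knockout heart). Adipoq, adiponectin, made by fat cells, was at 9.18, 9.0 and 9.59 in the kidneys and at 6.59, 6.88 and 6.65 in the hearts (5.87-fold), and Cidec, of the fat droplet, was undetected in the hearts (at least 2.69-fold). Cidea, known from brown fat and also present in the heart samples here, was at 6.99 in KO/KID replicate 1 and at 8.28 and 8.52 in replicates 2 and 3. Cox8b, the muscle and brown fat subunit of cytochrome c oxidase, showed the same split, at 7.49, 9.05 and 9.53 in the kidneys against 14.34, 14.26 and 14.15 in the hearts. Fat attached to the kidney samples was not tested as a source. Of 12 adrenal genes named on the array, 2 were detected in the knockouts, and the blood gene Hba-a1, alpha-globin, overlapped between hearts (13.48 to 14.61) and kidneys (13.08 to 13.93).

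Whole gene families, grouped here by symbol after their values were seen, parted as follows, beside 36.2% higher and 33.7% lower over all named genes. These family counts were not repeated with median centring only. Of 244 solute carriers tested, 156 were lower and 43 higher in KO/HT, and all 16 genes of the Slc22 family, organic ion transporters, were lower (from -6.75 to -0.45 log2). Of 35 cytochrome P450 genes, 30 were lower and none was higher. All 7 UDP-glucuronosyltransferases tested, which conjugate drugs and bilirubin, were lower. Complex I genes were higher in 41 of 42 cases (median 0.97 log2) and mitochondrial ribosomal proteins in 55 of 73, with 5 lower. Subunits of the proton pump V-ATPase were lower in 12 of 18 and higher in 2. One cytosolic ribosomal protein stood far outside its family: Rpl3l, a muscle form, was at 13.14, 13.32 and 12.66 in the hearts and at 7.83, 8.17 and 8.02 in the kidneys (5.03 ± 0.14 log2), where the median of the 59 genes was 0.17. Genes often used as references also differed: Ywhaz (2.64-fold) and Eef1a1 were lower in the heart and Gapdh higher (0.61 ± 0.06 log2). Of 12 such genes tested, 5 were higher and 5 lower (3 and 8 with median centring only).

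Transcripts that respond within minutes or follow the time of day were examined because the paper names several of them. Of 22 tested immediate early genes, 11 were higher and 2 lower in KO/HT (8 and 4 with median centring only), a smaller called share than the 69.9% of all named genes. Egr1 was at 10.70, 9.98 and 10.54 in the hearts and at 8.62, 7.94 and 8.62 in the kidneys (4.03-fold), Dusp1, a phosphatase that ends MAP kinase signals, was 2.31-fold higher and Klf2, a flow-responsive factor of endothelium, 3.75-fold. Gadd45g and Dusp6 were lower. Of 14 clock and clock-output genes, 9 were higher and 1 lower, but 2 and 2 with median centring only. That called share was close to the 69.9% of all named genes (36.2% higher, 33.7% lower). Dbp, a clock-driven transcription factor, was at 11.35, 12.28 and 12.17 in the hearts and at 11.20, 9.75 and 10.68 in the kidneys, so heart replicate 1 lay close to kidney replicate 1 without overlap (1.39 ± 0.33 log2, adjusted p = 0.00257, limma). It did not pass with KO/HT replicate 1 as the only knockout heart (0.81 log2, adjusted p = 0.128, limma). Nr1d1, Rev-erb alpha, was 1.8-fold higher.

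The 24 genes that the paper names for this comparison all passed the test, which is no independent evidence because they were chosen on these samples (13 higher and 7 lower with median centring only). In the heart direction there were 17, among them Ankrd1, Pi16, a peptidase inhibitor (9.93, 9.74 and 10.68 against 7.55, 7.32 and 7.35; 6.55-fold), Igfbp6 (1.19 log2) and Col3a1 (1.04 log2). In the kidney direction there were 7: Kl, Stx7, Map3k11, Zfp523, Cdk8, Xbp1 and Dad1, the last 6 between -0.82 and -0.59 log2.

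The wildtype organs were used to ask where the knockout comparison differs. Across the 19113 probes, the organ difference in the knockouts correlated with that in the wildtypes at r = 0.985 (Spearman's rho 0.962), a description over probes measured on the same arrays. In the wildtypes 68.6% of the probes passed an adjusted p under 0.05 and 33.5% met the organ criteria. All wildtype hearts differed from the wildtype kidneys in sex-linked transcripts too, and KO/HT replicate 1 did not differ from the knockout kidneys in them, so genotype and the sex make-up of the hearts are partly confounded in the following counts. The criteria were met in both genotypes by 5643 probes, in the wildtype alone by 762 and in the knockout alone by 513 (2.68%). The named probes among these 513 stood for 406 different genes. Of these 513, 504 had the same direction in the wildtype and 436 an adjusted p under 0.05 there, so most lay near the threshold. The difference itself, the interaction of genotype and organ, passed an adjusted p under 0.05 for 7 of the 513 and for 19 of all probes (0.0994%), with 1677 at an unadjusted p under 0.05.

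Most of the 19 probes that passed had no gene symbol and are not described here. Among them were all those with the smallest adjusted p (0.00105 to 0.0234, limma). Of the named probes that passed, 3 represented Ciart, a repressor of the circadian clock. In its brightest probe, KO/HT was at 7.68, 8.18 and 8.52 and KO/KID at 6.83, 6.51 and 6.72, whereas WT/HT was at 7.09 ± 0.21 (SD, n = 3) and WT/KID at 7.33 ± 0.12 (SD, n = 3). The organ difference was 1.44 ± 0.18 log2 in the knockouts and -0.23 ± 0.18 log2 in the wildtypes, which is an interaction of 1.67 ± 0.25 log2 (adjusted p = 0.0321, limma). Apob, apolipoprotein B, was at 9.29, 9.43 and 9.20 in the knockout kidneys and undetected in the hearts, with -2.81 ± 0.08 log2 in the knockouts and -2.10 ± 0.08 in the wildtypes. Hsd3b2, of the steroid-converting hydroxysteroid dehydrogenases, a family of closely related genes, differed less between the knockout organs (-0.51 ± 0.12 log2) than between the wildtype ones (-1.62 ± 0.12 log2). Fbxl22, a muscle F-box protein of the Z-disc, had 1.21 ± 0.05 log2 in the knockouts and 1.69 ± 0.05 in the wildtypes, and Haghl had -0.39 ± 0.07 and -0.99 ± 0.07.

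Some named genes met the organ criteria only in the knockouts without passing the interaction. Egr1 differed by 2.01 ± 0.33 log2 in the knockouts and by -0.23 ± 0.33 in the wildtypes (interaction adjusted p = 0.139, limma), Dbp by 1.39 ± 0.33 and -0.47 ± 0.33 (adjusted p = 0.246, limma) and Timp1 by 1.68 ± 0.36 and 0.37 ± 0.36 (adjusted p = 0.481, limma). Foxi1, the master factor of intercalated cells of the collecting duct, differed by -0.78 ± 0.05 log2 in the knockouts and by -0.40 ± 0.05 in the wildtypes (adjusted p = 0.125, limma). As a lower bound, it was at least 1.4-fold lower in the knockout hearts. For these genes the interaction test on the arrays did not show a difference between the genotypes at 3 arrays per group. The paper also measured Egr1, Dbp and Timp1 by quantitative PCR, comparing genotypes within each organ. It reports Egr1 and Dbp as raised in knockout hearts and lowered in knockout kidneys. Timp1 is reported there as raised in knockout hearts and unchanged in knockout kidneys.

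**Figure D5:**
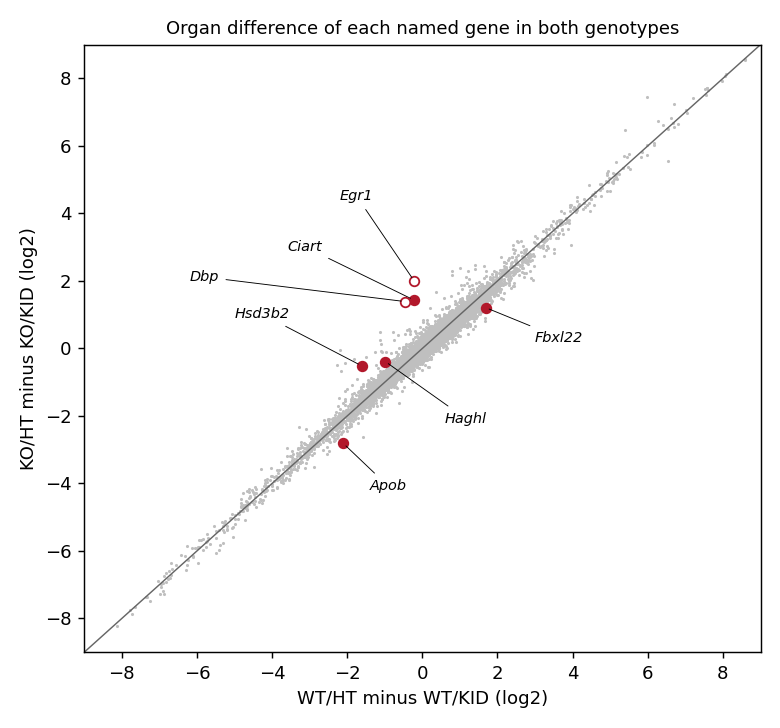
Log2 organ difference of each of 10978 named genes in the wildtypes (horizontal axis) and in the knockouts (vertical axis), with the line of equality. Filled red points are the 5 named genes that passed the interaction test, open red points are Egr1 and Dbp, which did not; Ciart lies at -0.23 and 1.44.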

How the data were processed

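Total RNA of each organ was labelled and hybridised to Illumina mouse bead arrays, 1 array per sample. The authors deposited, for 45281 probes, a linear signal intensity per array, not normalized, and a detection p-value for which neither the labels nor the methods state the calculation. They also deposited normalized linear intensity values, made per the paper with lumi and quantile normalization; these served as an alternative. The deposited signals were quantile normalized over the 12 arrays here and taken to log2, with no further background correction. All 12 arrays entered 1 limma fit (R 4.3.3, limma 3.58.1) with a mean per group, 8 residual and 3.93 prior degrees of freedom, and two-sided moderated tests were adjusted by Benjamini and Hochberg's method over the 19113 probes detected in at least 1 knockout array. From 14671 to 16080 probes were detected per knockout array; no number of molecules is known, so precision rests on 3 arrays per group. Nothing in the labels says how replicates were housed or extracted, so p-values measure the spread between these samples.

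Of the tested probes, 16596 had 1 gene symbol in the platform annotation, 9 had several and 2508 had none and are unnamed here. Of the 3955 genes with several detected probes, 164 had called probes in opposite directions. Standard errors (SE) are limma's. The members and gene lists were chosen with earlier results of these data known. Genes named are the 12 largest differences per direction without overlap of the organs, up to 6 members per list with the largest differences and those against their list's majority, the isoform pairs, genes the paper names, and genes passing the interaction. Named outside this rule after their values were seen were Cd163, Col8a1, Foxi1, Gapdh, Gja1, Hadhb, Hba-a1, Hoxd10, Mef2d, Mmp3, Myh7, Plat, Rpl3l, Scnn1a, Scnn1b, Slc8a1, Thbd, and, for their promoters, Mybpc3, Ttn, Cltrn, F13b, G6pc, Habp2 and Sult1d1. Column labels of same-numbered arrays share a number, but neither the labels nor the methods state that these arrays are pairs. Deviations of same-numbered knockout arrays correlated at -0.115, 0.066 and 0.208, and those of differently numbered ones between -0.244 and 0.227. These values cannot settle pairing. Sex-linked transcripts differed between the knockout organs in replicates 2 and 3 but not in replicate 1. On simulated data with 200 of 19113 probes changed, the KO/HT against KO/KID contrast recovered 89.6% at 1.5-fold and 100% at 4-fold, with 10 false calls. The interaction contrast recovered 68.7% at 1.5-fold, with 15 false calls. The other simulated probes had no organ difference and no normalization was applied, whereas 67.2% of the real probes were called. These figures therefore check the test but not the scale of the real comparison. The level of the targeted transcript is not reported here. Alternatives are listed in the closing section.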

Additional observations from a re-analysis of the deposited data

Results flagged for a closer look

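For 5 named genes the organ difference itself differed between the genotypes by the interaction test (knockout minus wildtype, limma, Benjamini-Hochberg). The probes with the smallest adjusted p of that test had no gene symbol and are left out here. Ciart had an interaction of 1.67 log2 (adjusted p = 0.0321), Apob of -0.71 log2 (adjusted p = 0.0321), Fbxl22 of -0.48 log2 (adjusted p = 0.0321), Hsd3b2 of 1.11 log2 (adjusted p = 0.0361) and Haghl of 0.60 log2 (adjusted p = 0.0485). When each of the 12 arrays was left out in turn, the interaction stayed between 1.47 and 1.90 log2 for Ciart, -0.77 and -0.63 for Apob, -0.52 and -0.45 for Fbxl22, 1.00 and 1.22 for Hsd3b2 and 0.54 and 0.65 for Haghl. The adjusted p stayed under 0.05 in 2 of those 12 fits for Ciart, 3 for Apob, 1 for Fbxl22, 2 for Hsd3b2 and 1 for Haghl, and rose to 0.109 at most for Ciart, 0.132 for Apob and Fbxl22, 0.146 for Hsd3b2 and 0.153 for Haghl. With the mean of all detected probes in place of the brightest, Hsd3b2, which has 6 detected probes, had 0.16 log2 (adjusted p = 0.678). The wildtype hearts carried Xist in 3 of 3 arrays and the knockout hearts in 2 of 3, while no kidney did, so the genotypes also differ in sex make-up, whose part was not tested. With KO/HT replicate 1 as the only knockout heart, Ciart had 1.22 log2 (adjusted p = 0.0429) and Hsd3b2 1.28 log2 (adjusted p = 0.0386), and Apob, Fbxl22 and Haghl did not pass (adjusted p from 0.0535 to 0.0863). No group had more than 3 arrays, so single arrays were not tested as outliers.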

How the results depend on the processing

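The counts of called probes kept within 1.5 times their value under most alternatives. On the median-centred scale they were 3866 higher and 9179 lower (organ criteria 1783 and 4985, in the knockout alone 1073), and 285 of the 12851 calls turned to the opposite direction. Background correction by neqc gave 5233 higher and 4566 lower at the organ criteria and 985 in the knockout alone. Of the 513 probes in the knockout alone, 105 were shared with the median-centred result, 177 with neqc and 150 with the authors' normalized values. The 19 probes with an interaction became 10 with the authors' normalized values, 11 with no filter and 37 with KO/HT replicate 1 as the only knockout heart, and between 5 (without WT/KID replicate 2) and 24 (without KO/HT replicate 2) when 1 array was left out; leaving out WT/HT replicate 1 gave 9, either of the other wildtype hearts 6, and KO/KID replicate 2 gave 11. The cause was not tested. With the replicate number as a block, 6666 probes were higher and 5767 lower, and 14 had an interaction, 10 of them shared; none of the 5 named interactions passed (adjusted p from 0.0803 to 0.181, limma). In the wildtypes, deviations of same-numbered arrays correlated at 0.004, -0.074 and 0.057. Of 164 named genes, only Phka2 and Cox7a2, not past the test as reported, changed sign: Phka2 was -0.44 on the median-centred scale (adjusted p = 5.17e-05, limma), -0.02 as the mean of its probes and between -0.05 and 0.04 with 1 array left out, and Cox7a2 was 0.27 with KO/HT replicate 1 as the only knockout heart (adjusted p = 0.0282, limma), -0.69 on the median-centred scale (adjusted p = 2.17e-05, limma) and between -0.27 (adjusted p = 0.00968, limma) and 0.03 with 1 left out. With that heart alone, Nr1d1 was 0.49, Phka1 0.41, Timp1 0.99, Mmp3 0.78 and H2-Eb1 -1.24 log2, all past the test; Gadd45g did not pass (adjusted p = 0.0793, limma), and Dbp not on the median-centred scale (adjusted p = 0.0503, limma). Signals near background limit the low genes, and those near the top of the scale the highest.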
